A study of Mus musculus with 8 samples.

Results

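The Nrf2 antioxidant defence genes described here are 10 genes chosen by name: Nfe2l2, Slc7a11, Gclc, Gclm, Gpx1, Gpx2, Txnrd1, Srxn1, Hmox1 and Nqo1. All 10 were among the 53379 genes listed in the deposited tables, and all 10 passed the filter on low counts, which kept 14991 genes. They were measured by RNA sequencing of intestinal epithelial cells (IEC) that were shaken from the distal colon of C57BL/6 mice. RORaf/f mice, whose Rora alleles are floxed but intact, are called WT. RORaΔIEC mice, which lack the nuclear receptor gene Rora in the intestine, are called KO. Each genotype was either left without treatment (control WT and control KO) or given dextran sulfate sodium, abbreviated DSS, which damages the epithelium of the colon (DSS WT and DSS KO). DSS was taken at 2% (w/v) in drinking water over 5 days, with plain water over the next 3 days. The 8 libraries form 4 groups of 2. The promoter that drives the deletion, the age of the mice and whether the 2 libraries of a group came from separate mice are not given in the sources used here, so p-values measure the spread between these libraries, which may be technical.

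Nfe2l2 encodes Nrf2, a transcription factor that the adaptor Keap1 holds in the cytoplasm and feeds to a ubiquitin ligase. Oxidants and electrophiles modify cysteines of Keap1, after which Nrf2 accumulates in the nucleus, pairs with a small Maf protein and binds antioxidant response elements. Much of this control acts on the protein, so the level of Nfe2l2 RNA is not a measure of Nrf2 activity. Its classical targets make and recycle glutathione and thioredoxin, break down haem and reduce quinones. In the colon lining these enzymes meet peroxides made by the epithelium itself and by infiltrating phagocytes.

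The antioxidant response element is the sequence that Nrf2 binds, so stretches of promoter that hold its core are shown first. RefSeq promoter windows on GRCm38.p6 were matched for 8 of the 10 genes, and Hmox1 and Gclc were not matched. The core searched was TGACNNNGC, on both strands. It was found in at least 1 window of 4 of the 8 genes, namely Nfe2l2, Gclm, Txnrd1 (1 of its 3 windows) and Srxn1, against 14% of 27025 genes in the table. Of all 32851 promoter windows, 12.4% held it. In Srxn1 the match lay in the transcribed part of the window and is not shown. The windows of Nqo1, Slc7a11, Gpx1 and Gpx2 did not hold these letters. Sequence outside a window was not searched, and that of Nqo1 spans only 107403156 to 107403455 on chromosome 8. A longer form, the core followed directly by an A, was present in 3.04% of all windows and was found at Txnrd1 alone among the matched genes. Capitals mark the core in each 80-base stretch below, written on the strand of the gene.
Nfe2l2, chr2:75704834-75704913, minus strand: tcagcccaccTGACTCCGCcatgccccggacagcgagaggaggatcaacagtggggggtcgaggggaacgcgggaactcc
Gclm, chr3:122245388-122245467, plus strand: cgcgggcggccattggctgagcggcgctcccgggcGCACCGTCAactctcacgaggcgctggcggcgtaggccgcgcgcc
Txnrd1, chr10:82859079-82859158, plus strand: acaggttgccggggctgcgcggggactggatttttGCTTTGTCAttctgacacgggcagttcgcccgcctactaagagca
The Nfe2l2 match begins 240 bases upstream of its start site and reads TGACTCCGC on the strand of the gene. In Gclm the match begins 134 bases upstream and reads TGACGGTGC on the opposite strand. For Txnrd1 it begins 92 bases upstream of the second of 3 annotated start sites and reads TGACAAAGC on the opposite strand. A match is only a description of the letters, and binding was not measured.

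Total expected counts per library were between 15971642 and 20418466, and 20445 to 21045 genes had a count. The chi-square per degree of freedom between the 2 libraries of a group was 1.29 to 2.23 in 3 groups and 5.23 in DSS KO. Mitochondrial genes took 4.91% and 5.29% of counts in DSS KO and 7.23% to 8.05% in the other 6 libraries. Rora counts were between 3 and 16 in every library, and the log2 fold change of KO against WT was -1.10 without DSS (adjusted p = 0.238) and -1.24 with it (adjusted p = 0.0425). The epithelial marker list of 10 genes, Epcam and Vil1 among them, summed to between 15297 and 18452 counts-per-million (CPM) in all libraries.

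The 2 glutathione peroxidases were by far the most abundant of the 10 transcripts per unit of length, and Hmox1 and Slc7a11 the scarcest. In deposited transcripts-per-million (TPM), the mean over the 8 libraries was 737 for Gpx2, 429 for Gpx1, 124 for Nfe2l2, 114 for Txnrd1, 85.6 for Gclm, 56.8 for Srxn1, 36.3 for Gclc, 36.1 for Nqo1 and 3.83 for Hmox1. Slc7a11 was lower still, at 0.320 to 2.97 TPM. Gpx2 lay above 98.8% of the tested genes and Slc7a11 above 15.6%. Within groups the order was the same but for neighbouring pairs. Nqo1 stood above Gclc in control WT, at 38.8 and 36.3 TPM, and Txnrd1 above Nfe2l2 in DSS KO, at 145 and 119.7 TPM. In each group the libraries of neighbours in this order did not overlap, except for Nqo1 and Gclc in DSS KO, at 35.8 and 34.3 TPM.

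**Figure D1:**
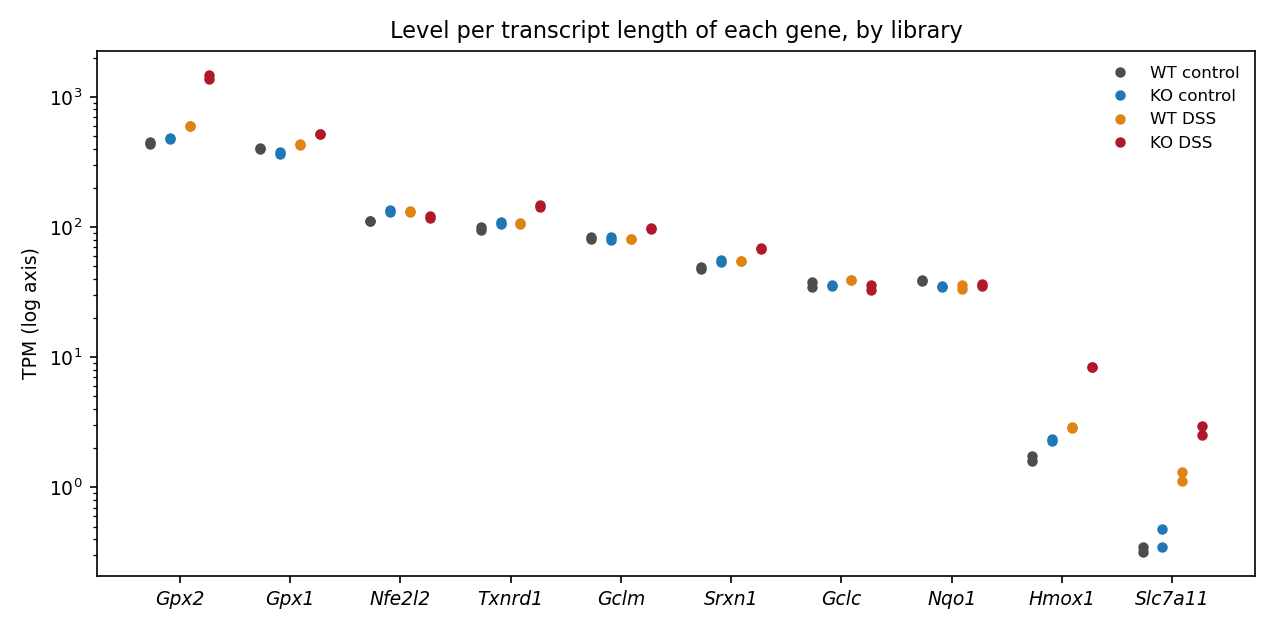
TPM of the 10 genes in each of the 8 libraries on a log axis, ordered by mean level and coloured by group, with 1 point per library. Gpx2 reaches 1377 and 1481 TPM in DSS KO, whereas Slc7a11 stays at or below 2.97 TPM in every library.

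Most of the movement in this set was seen in DSS KO. There 6 of the 10 genes were higher than in DSS WT (Gpx2, Slc7a11, Hmox1, Txnrd1, Srxn1 and Gpx1), and Nfe2l2 itself and Gclc were lower. Gclm and Nqo1 did not pass the test. In the same comparison 21.3% of all tested genes were higher and 17.7% lower. The median log2 fold change was 0.23 for the 10 genes and -0.01 for all tested genes. Since the genes were chosen with results of these data known, these counts describe the set and are no test of it. Epithelial cells were sequenced in bulk, so fewer cells of a type and less RNA per cell cannot be told apart in any of these values.

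With DSS, 5 of the 10 genes passed the test in WT and 9 in KO. In WT, 4 genes were higher (Slc7a11, Hmox1, Gpx2 and Nfe2l2) and Nqo1 was lower, with 18.9% of all tested genes higher and 18.3% lower. In KO, 7 were higher (Slc7a11, Hmox1, Gpx2, Gpx1, Txnrd1, Srxn1 and Gclm) and 2 lower (Nfe2l2 and Gclc), with 21.7% of all tested genes higher and 19.8% lower. Over all tested genes, 3259 were higher and 2972 lower in that comparison, which became 4041 and 2392 when libraries were scaled by total counts. The median log2 change of the 10 genes was 0.07 in WT and 0.28 in KO, against -0.01 and 0.00 for all tested genes. The interaction, defined as the change with DSS in KO less that in WT, was positive for 5 genes (Gpx2, Hmox1, Slc7a11, Txnrd1 and Gpx1) and negative for 2 (Nfe2l2 and Gclc). Over all tested genes it was positive for 10.8% and negative for 10.6%. These comparisons share libraries, so their values are given side by side for each gene.

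Without DSS, Nfe2l2 was higher and Nqo1 lower in KO, and the other 8 genes did not pass the test. A gene that did not pass is not thereby shown to be equal in the 2 genotypes. Of all tested genes 9.19% were higher and 6.22% lower. The median log2 fold change was 0.08 for the 10 genes and 0.01 for all tested genes.

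**Figure D2:**
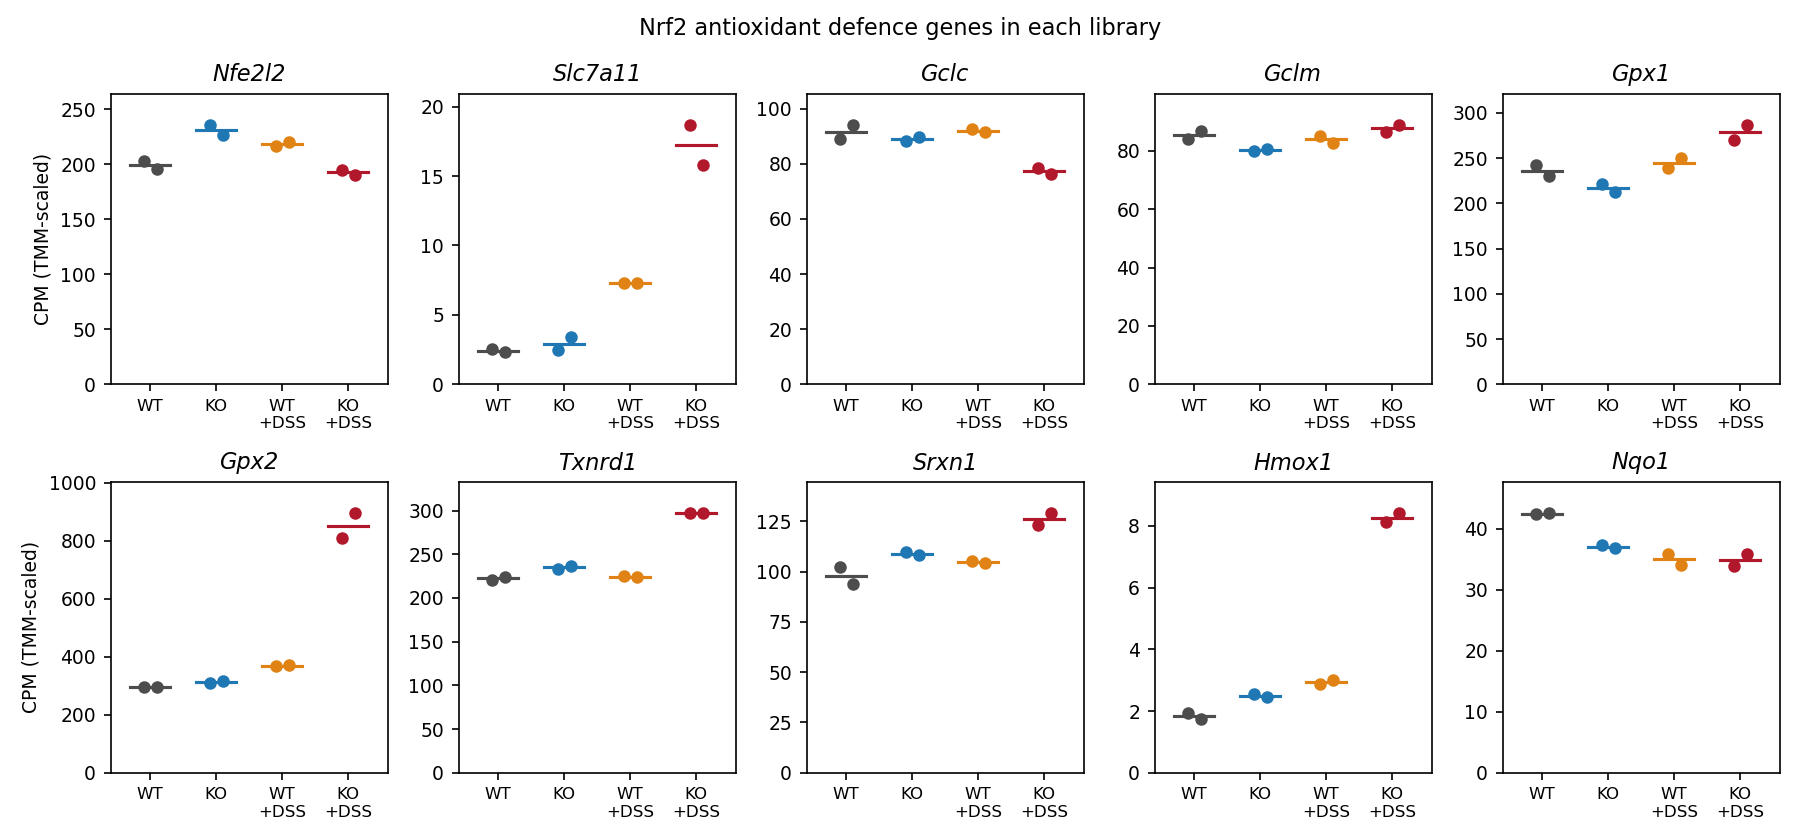
CPM after TMM scaling of each gene in the 8 libraries, with 1 point per library and a line at the mean of each group; every vertical axis starts at 0 and has its own range. Gpx2, Hmox1, Slc7a11, Txnrd1, Srxn1 and Gpx1 are at their highest in the 2 DSS KO libraries, where Nfe2l2 and Gclc are at their lowest.

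Nfe2l2 (ENSMUSG00000015839.6, chromosome 2, 75675513 to 75704641, mm10), the gene of the regulator, went opposite ways with genotype in the 2 treatments. It stood at 203 and 196 CPM in control WT, 236 and 227 in control KO, 217 and 219.8 in DSS WT, and 195 and 190.3 in DSS KO. The control KO libraries were the highest and the DSS KO libraries the lowest, with no overlap between groups that were compared. Without DSS the log2 fold change of KO against WT was 0.21 ± 0.04 (SE, adjusted p = 0.00337), and with DSS it was -0.18 ± 0.04 (adjusted p = 0.00393). For DSS against control, WT changed by 0.13 ± 0.04 (adjusted p = 0.0298) and KO by -0.27 ± 0.04 (adjusted p = 0.000156). The difference between these changes, -0.39 ± 0.06, passed the test (adjusted p = 0.000399). The untreated call was lost without the second control WT library (adjusted p = 0.0567) or the first control KO library (adjusted p = 0.0825). The rise in WT was lost by DESeq2 (adjusted p = 0.0877), without a filter (0.107), with effective-length offsets (0.0731), and without any of 6 libraries, namely those of WT and of control KO, with adjusted p up to 0.192.

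Counts in this and the later lists are to be read beside the shares of all tested genes given above for each comparison. For KO against WT under DSS, 21.3% of all tested genes were higher and 17.7% lower. Of the 14 regulators around Nrf2 that were listed, 3 were higher and 2 lower in DSS KO than in DSS WT, near those shares. Without either DSS WT library 1 of them was lower, as with DESeq2. Keap1, the adaptor that marks Nrf2 for degradation, was 58.0 ± 0.884 CPM (SD, n = 2) in DSS WT and 67.7 ± 3.26 in DSS KO (log2 fold change 0.22 ± 0.06, adjusted p = 0.00862), and was picked here after its values were seen. Dpp3, a peptidase that binds Keap1, was higher by 0.25 ± 0.04 (adjusted p = 0.000402), with means of 121 and 143 CPM. Bach2, a repressor of the Bach family that competes for Maf partners, was lower by -1.16 ± 0.19 (adjusted p = 0.000220), with means of 4.88 and 2.18 CPM. Control KO differed from control WT in Mafg alone among these 14 genes, at -0.22 ± 0.05 (adjusted p = 0.0114). No gene of the list was called lower there by DESeq2 or without the second control WT or either control KO library, and 1 was called higher without either DSS KO library. With DSS, 2 of the 14 were higher and 1 lower in WT, where Maff, a small Maf gene, changed by -0.60 ± 0.10 (adjusted p = 0.000352) and Bach1 by 0.20 ± 0.05 (adjusted p = 0.00984). With DESeq2 0 were higher in WT. The number higher was 0 without the first control WT or the first DSS WT library and 1 without the second DSS WT or either control KO library. It was 3, with 5 lower, without either DSS KO library, and 2 were lower without the first control WT library. In KO 3 were higher (1 by DESeq2 and without either control KO library) and 4 lower, among them Mafk at -0.32 ± 0.06 (adjusted p = 0.000377).

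Slc7a11 (ENSMUSG00000027737.10, chromosome 3, 49892526 to 50443614) encodes the cystine importer that supplies cysteine for glutathione, and it showed the largest DSS change of the 10 genes in both genotypes. Its level was 2.55 and 2.30 CPM in control WT, 2.48 and 3.37 in control KO, 7.33 and 7.30 in DSS WT, and 18.7 and 15.8 in DSS KO. These rest on 39.01 to 55.01 expected counts per library without DSS, 122.01 and 124.03 in DSS WT, and 325.03 and 276.29 in DSS KO. The untreated genotypes overlapped, whereas every DSS library lay above every untreated one and the KO libraries above the WT ones. DSS raised Slc7a11 by 1.59 ± 0.17 on the log2 scale in WT (adjusted p = 8.04e-06) and by 2.55 ± 0.15 in KO (adjusted p = 6.41e-09). Under DSS it was 2.36-fold higher in KO than in WT (log2 fold change 1.24 ± 0.13, adjusted p = 2.89e-06). Untreated, the log2 fold change was 0.27 ± 0.21 (adjusted p = 0.447). The interaction of 0.97 ± 0.25 passed the test (adjusted p = 0.0130), but not with DESeq2 (0.0531), with effective-length offsets (0.0634), or without the first control WT library (0.0845) or the first control KO library (0.0758).

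Gclc and Gclm encode the catalytic and modifier subunits of glutamate-cysteine ligase, the rate-limiting enzyme of glutathione synthesis, and they did not move together in DSS KO. Gclc (ENSMUSG00000032350.9, chromosome 9, 77754535 to 77794485) was at 88.9 and 94.2 CPM in control WT, 88.2 and 89.6 in control KO, 92.6 and 91.4 in DSS WT, and 78.3 and 76.3 in DSS KO. The DSS KO libraries were the lowest of the 8, and the other groups were close together. Gclc fell with DSS in KO by 0.20 ± 0.05 on the log2 scale (adjusted p = 0.00413), and it was lower in KO than in WT under DSS (log2 fold change -0.25 ± 0.05, adjusted p = 0.000901). In WT the DSS change was 0.01 ± 0.05 (adjusted p = 0.912). The interaction was -0.21 ± 0.07 (adjusted p = 0.0415). That call was lost with total count scaling (0.0610), no filter (0.0931), DESeq2 (0.221), effective-length offsets (0.234) and a replicate block. It was also lost without any library but the first of DSS KO and the second of control WT.

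Gclm (ENSMUSG00000028124.15, chromosome 3, 122245557 to 122270732) was at 84.2 and 86.7 CPM in control WT, 79.8 and 80.5 in control KO, 85.2 and 82.8 in DSS WT, and 86.6 and 89.0 in DSS KO. Its whole range was thus narrow. DSS KO was above control KO by 0.13 ± 0.05 (log2, adjusted p = 0.0371), a call lost with upper quartile scaling (0.0930), no filter (0.0966), DESeq2 (0.171), effective-length offsets (0.0846) and without 7 of the 8 libraries in turn. KO against WT under DSS gave 0.06 ± 0.05 (adjusted p = 0.302). In TPM, which is relative to length and rescaled within each library, Gclm was at 98.0 and 96.3 in DSS KO and at 80.2 to 83.7 in all other libraries. The effective length that RSEM assigned to it was 1258.67 and 1286.43 bases in DSS KO, 1383.18 and 1429.25 in DSS WT and 1238.46 to 1315.61 in the controls. With effective-length offsets, KO against WT under DSS became 0.204 (adjusted p = 0.0136). An opposite-strand transcript, Gm17494, overlaps Gclm and had 49.78 to 75.52 expected counts per library, and whether strand was used in counting is not given in the sources used here.

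Other genes of glutathione synthesis and recycling were split. Of 15 genes, 6 were higher and 4 lower in KO than in WT under DSS, with a median log2 fold change of 0.17. These were 3 and 3 with DESeq2, and 2 and 2 without the first DSS WT library. Gsr, which regenerates reduced glutathione with NADPH, was at 109 ± 3.39 CPM (SD, n = 2) in control WT, 115 ± 1.15 in control KO, 88.1 ± 2.24 in DSS WT and 156 ± 1.08 in DSS KO. It changed with DSS in opposite directions, by -0.31 ± 0.05 in WT (adjusted p = 0.000150) but by 0.43 ± 0.04 in KO (adjusted p = 2.19e-06), and KO was above WT under DSS by 0.82 ± 0.05 (adjusted p = 6.81e-09). Cth, which makes cysteine from cystathionine, fell with DSS in KO by 0.71 ± 0.05 (adjusted p = 3.09e-08) and was lower in KO than in WT under DSS at -0.41 ± 0.05 (adjusted p = 1.47e-05). Slc3a2, the heavy chain that pairs with Slc7a11, was higher in KO under DSS by 0.22 ± 0.06 (adjusted p = 0.00672), and was picked after its values were seen. DSS in WT gave 3 genes higher and 7 lower (4 without the first DSS WT library), DSS in KO 4 higher and 3 lower, and control KO against control WT 0 in either direction by edgeR and by DESeq2, with 1 in each direction at an unadjusted p below 0.05.

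Gpx2 (ENSMUSG00000042808.8, chromosome 12, 76792333 to 76795554), the glutathione peroxidase typical of gut epithelium, gave the largest interaction of the set. Its level was 294 and 297 CPM in control WT, 309 and 315 in control KO, 368 and 369.9 in DSS WT, and 809 and 895 in DSS KO. Both DSS KO libraries lay far above the other 6, and both DSS WT libraries above the 4 untreated ones. DSS raised Gpx2 by 0.32 ± 0.05 in WT (log2, adjusted p = 0.000131) and by 1.45 ± 0.05 in KO (adjusted p = 1.34e-11). Gpx2 was 2.31-fold higher in KO than in WT under DSS (log2 fold change 1.21 ± 0.05, adjusted p = 2.40e-10) and did not pass the test untreated (0.08 ± 0.05, adjusted p = 0.313). The interaction was 1.13 ± 0.07 (adjusted p = 7.16e-08). Every alternative kept both calls, with KO against WT under DSS between 1.132 and 1.279. The gene Fntb lies over Gpx2 on the opposite strand and had 279.0 to 408.0 expected counts, and the near copy Gpx2-ps1 had 1.01 to 13.11, against 5297.97 to 15635.89 for Gpx2.

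Gpx1 (ENSMUSG00000063856.7, chromosome 9, 108338903 to 108340343), the widely expressed cytosolic glutathione peroxidase, moved in the same direction by far less. It was at 242 and 230.4 CPM in control WT, 221 and 212 in control KO, 239 and 249.9 in DSS WT, and 270.1 and 287 in DSS KO. Control KO was lowest and DSS KO highest, while the 2 WT groups overlapped. DSS raised it in KO by 0.36 ± 0.05 (log2, adjusted p = 2.38e-05), and in WT the change was 0.05 ± 0.05 (adjusted p = 0.433), with an interaction of 0.31 ± 0.07 (adjusted p = 0.00454). KO against WT under DSS gave 0.19 ± 0.05 (adjusted p = 0.00577), which was lost without the first DSS WT library (0.155, adjusted p = 0.0805). Of 6 other glutathione peroxidases, 3 were tested. Gpx4, which reduces lipid peroxides in membranes, was higher in KO under DSS by 0.27 ± 0.08 (adjusted p = 0.0143), and Gpx3, the secreted form, by 0.87 ± 0.21 (adjusted p = 0.00423) at 1.96 and 3.59 CPM. Of these 2 calls, 1 was lost with DESeq2, without the first DSS WT library and without the second DSS KO library. Gpx5 and Gpx6 were at 0 in every group.

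Glutathione peroxidases and thioredoxin reductase both draw on NADPH. Listed for its supply were 8 genes, of which Pgls, Tkt and Taldo1 act in the pentose phosphate pathway but do not form NADPH themselves. The summed level of the 8 was 1278 to 1298 CPM in DSS WT and 1501 to 1625 in DSS KO. Under DSS, 6 of them were higher in KO than in WT and the other 2 did not pass the test. The count was 5 with DESeq2 and 3 without the first DSS WT library. G6pdx, the first enzyme of the pentose phosphate pathway, was higher by 0.48 ± 0.05 (adjusted p = 1.88e-06), from 76.3 to 107 CPM. Pgd, the next NADPH-forming enzyme of that pathway, was higher by 0.38 ± 0.04 (adjusted p = 7.34e-06), from 344 to 449 CPM. Me1, malic enzyme, rose with DSS in both genotypes, by 2.01 ± 0.15 in WT (adjusted p = 2.36e-07) and by 1.04 ± 0.14 in KO (adjusted p = 3.29e-05). Nnt, the mitochondrial transhydrogenase, was lower in control KO than in control WT at -0.52 ± 0.06 (adjusted p = 4.58e-05). DSS gave 4 genes higher and 2 lower in WT, 6 higher and 1 lower in KO, and control KO against WT 2 higher and 1 lower, which was 1 and 1 without any of the 4 control libraries and 4 and 3 without either DSS KO library. In KO 2 were lower with DSS without the second DSS KO library.

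**Figure D3:**
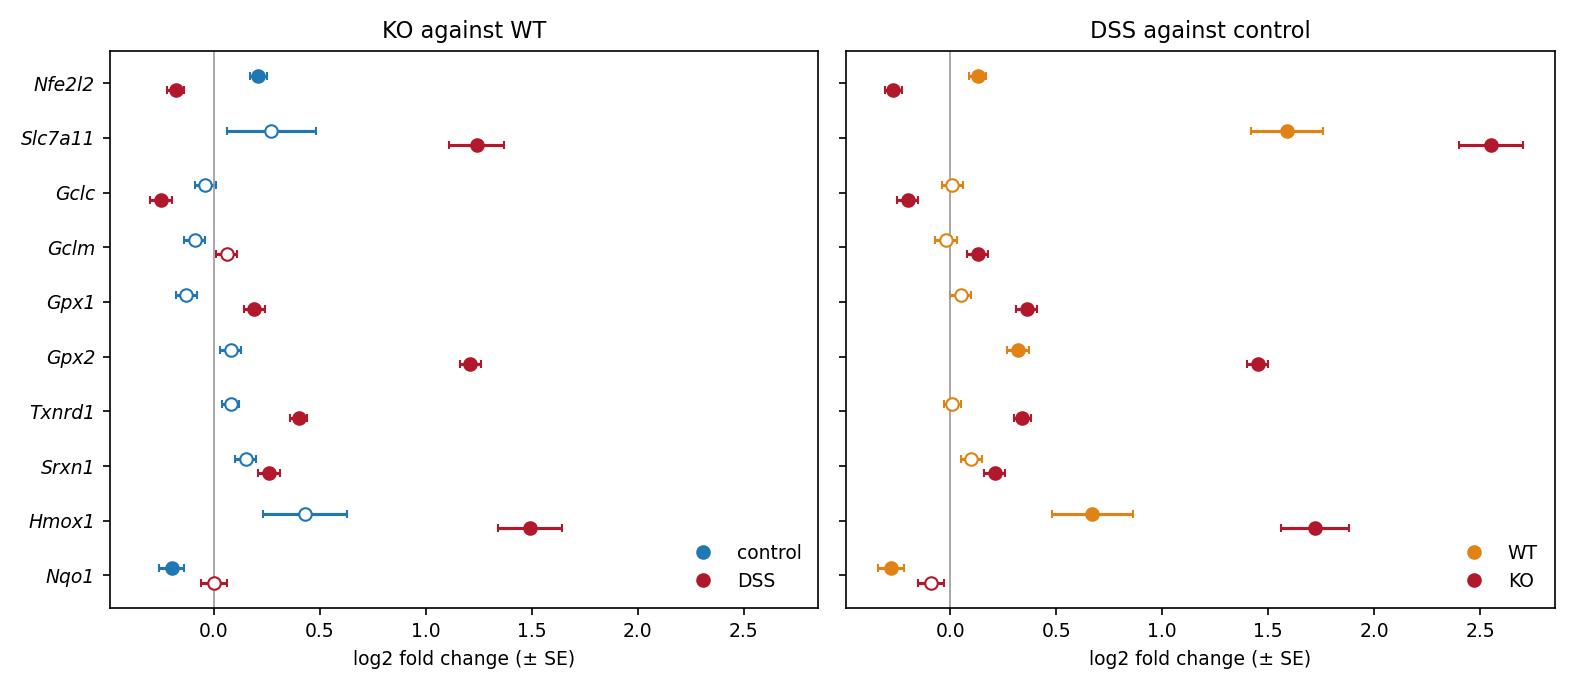
Log2 fold change of each gene, with bars of 1 SE, for KO against WT (left, by treatment) and DSS against control (right, by genotype); filled points passed the adjusted p threshold of 0.05 and open points did not. Under DSS, Gpx2, Hmox1 and Slc7a11 lie beyond 1 in KO against WT, and Nfe2l2 lies to the right of 0 untreated and to the left of 0 under DSS.

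Txnrd1 (ENSMUSG00000020250.10, chromosome 10, 82833951 to 82897712), which encodes the cytosolic thioredoxin reductase, stood apart in DSS KO. It was at 221 and 224 CPM in control WT, 233 and 237 in control KO, 225 and 224 in DSS WT, and 297 and 297 in DSS KO. The 2 DSS KO libraries stood clear of the other 6. KO against WT under DSS gave a log2 fold change of 0.40 ± 0.04 (adjusted p = 1.74e-06), against 0.08 ± 0.04 untreated (adjusted p = 0.209). DSS changed it by 0.34 ± 0.04 in KO (adjusted p = 7.59e-06) and by 0.01 ± 0.04 in WT (adjusted p = 0.853), and the interaction of 0.33 ± 0.06 passed the test (adjusted p = 0.000984).

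Srxn1 (ENSMUSG00000032802.8, chromosome 2, 152105516 to 152111376) encodes sulfiredoxin, which repairs overoxidised peroxiredoxins. Its level was 102 and 93.6 CPM in control WT, 109.6 and 108 in control KO, 105 and 104 in DSS WT, and 123 and 129 in DSS KO. DSS KO was highest, and each KO group lay above the WT group of the same treatment. Under DSS the log2 fold change of KO against WT was 0.26 ± 0.05 (adjusted p = 0.000878), and DSS in KO gave 0.21 ± 0.05 (adjusted p = 0.00355). The untreated difference of 0.15 ± 0.05 did not pass (adjusted p = 0.0697), nor did the DSS change in WT, 0.10 ± 0.05 (adjusted p = 0.152). Since the interaction was 0.12 ± 0.07 (adjusted p = 0.281), the DSS changes of the 2 genotypes were not shown to differ for Srxn1.

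Of 16 other thioredoxin and peroxiredoxin genes, 6 were higher and 5 lower in KO than in WT under DSS, with 3 lower by DESeq2 and without the first DSS WT library. Prdx1, a cytosolic peroxiredoxin, was higher by 0.52 ± 0.05 (adjusted p = 1.79e-06), from 336 to 481 CPM, and Prdx4, the peroxiredoxin of the secretory pathway, by 0.74 ± 0.09 (adjusted p = 1.80e-05), from 23.1 to 38.4 CPM. Txnip, an inhibitor of thioredoxin, fell with DSS by 0.35 ± 0.04 in WT (adjusted p = 4.91e-06) and by 0.46 ± 0.04 in KO (adjusted p = 1.62e-07). Prdx6 was lower in control KO than in control WT (-0.42 ± 0.04, adjusted p = 1.18e-05), at 1800.0 and 2405 CPM, and its interaction was 0.71 ± 0.06 (adjusted p = 1.49e-06). DSS gave 4 genes higher and 5 lower in WT and 5 higher and 4 lower in KO. Those higher in WT became 1 with DESeq2 and without the first control WT library, and 2 without the first DSS WT library. Those lower in KO became 2 with DESeq2 and without the first control KO library. Control KO had 2 lower than control WT, and 1 without any of the 4 control libraries. Among 6 genes that remove superoxide and peroxide outside these systems, 1 was higher and 2 lower in KO than in WT under DSS. With DESeq2 these were 1 and 1, and they also changed when some libraries were left out. Cat, catalase, stood at -0.55 ± 0.05 (adjusted p = 1.13e-06) and Park7 at 0.45 ± 0.06 (adjusted p = 3.73e-05). Control KO had 2 of the 6 lower than control WT, and 1 with DESeq2. With DSS 4 of the 6 fell in WT and 3 in KO, and the rest did not pass the test.

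Hmox1 (ENSMUSG00000005413.8, chromosome 8, 75093621 to 75100589), the inducible haem oxygenase, was scarce in every library and highest in DSS KO. Its counts were 39 and 31 in control WT, 40 and 40 in control KO, 48 and 51 in DSS WT, and 141 and 147 in DSS KO. In CPM these were 1.95 and 1.74, 2.54 and 2.45, 2.88 and 3.00, and 8.11 and 8.41. The groups did not overlap, and DSS KO was far above the rest. KO was 2.80-fold above WT under DSS (log2 fold change 1.49 ± 0.15, adjusted p = 3.03e-06), and the untreated value of 0.43 ± 0.20 did not pass (adjusted p = 0.215). DSS raised it by 1.72 ± 0.16 in KO (adjusted p = 7.21e-07) and by 0.67 ± 0.19 in WT (adjusted p = 0.0144), with an interaction of 1.06 ± 0.26 (adjusted p = 0.00976). The WT call was lost with DESeq2 (0.131), without the second control WT library (0.0811) and without either DSS WT library (0.0535 and 0.0709). The interaction was lost with DESeq2 (0.110) and without the first control WT library (0.0603).

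Around Hmox1, 5 of 9 haem and iron genes were higher in KO than in WT under DSS and the other 4 did not pass the test. The count was 2 with DESeq2, and 2 or 3 when either DSS WT library or the second DSS KO library was left out. Tfrc, the transferrin receptor that imports iron, was at 238 ± 1.94 CPM (SD, n = 2) in control WT, 286 ± 2.08 in control KO, 346 ± 1.87 in DSS WT and 720.1 ± 28.2 in DSS KO. It was higher in KO by 1.06 ± 0.04 under DSS (adjusted p = 2.07e-10) and by 0.26 ± 0.04 untreated (adjusted p = 0.000691). Ftl1, a ferritin light chain, was higher by 0.24 ± 0.05 under DSS (adjusted p = 0.00182). Slc40a1, the iron exporter ferroportin, was lower in control KO (-0.40 ± 0.04, adjusted p = 1.33e-05) and rose with DSS in KO by 0.63 ± 0.04 (adjusted p = 1.56e-08). Ferritin genes have near-identical copies, so their counts are uncertain. DSS in WT gave 1 gene higher and 5 lower, DSS in KO 3 higher and 1 lower, and control KO against WT 1 higher and 4 lower (2 without the first control KO library). In WT 2 were higher without either DSS KO library.

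Nqo1 (ENSMUSG00000003849.8, chromosome 8, 107388225 to 107403206), the quinone reductase often used as a readout of Nrf2, was highest in control WT. It was at 42.4 and 42.6 CPM in control WT, 37.3 and 36.8 in control KO, 35.9 and 34.1 in DSS WT, and 33.9 and 35.9 in DSS KO. The DSS-treated genotypes overlapped, and both control WT libraries lay above the other 6. DSS lowered Nqo1 in WT (log2 change -0.28 ± 0.06, adjusted p = 0.00170), and the change in KO was -0.09 ± 0.06 (adjusted p = 0.281), with an interaction of 0.19 ± 0.08 (adjusted p = 0.113). Under DSS, KO against WT gave -0.00 ± 0.06 (adjusted p = 0.967). The untreated value of -0.20 ± 0.06 (adjusted p = 0.0315) was no longer called with DESeq2 (0.266), with effective-length offsets (0.113) or without any of the 4 untreated libraries, with adjusted p up to 0.180.

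Of 25 other quinone and carbonyl detoxification genes tested, 16 were lower and 4 higher with DSS than without it in WT. In KO, 14 were lower and 5 higher with DSS. With DESeq2 the counts in WT were 12 lower and 2 higher, and 2 were higher without the second control WT or the second DSS WT library. Surface colonocyte markers moved in the same comparisons, with 10 of 12 lower and 2 higher in WT, and 9 lower and 1 higher in KO. Their sums were 20451 to 20762 CPM in control WT, 20123 to 20258 in control KO, 17003 to 17179.8 in DSS WT and 17055 to 17088 in DSS KO. Car4, a carbonic anhydrase among them, was at 839, 687, 354 and 325 CPM in that order, and Cyp2c55 at 320.3, 380.3, 235 and 48.9. Krt20 was at 676, 1073, 826 and 1044 CPM, and Ceacam1 at 3201, 3494, 4011 and 3283. The largest part of the sums was Lypd8, at 9138, 8522, 8153 and 9559.6 CPM. The part of surface colonocytes in the fall of the detoxification genes was not tested. KO against WT gave 8 higher and 8 lower under DSS (4 and 6 without the first DSS WT library) and 2 higher and 7 lower untreated. The untreated counts were 1 and 4 with DESeq2, 1 to 2 and 2 to 4 without a control library, 3 and 9 without either DSS KO library, and 1 and 7 without either DSS WT library. Aldh1a1, a retinal dehydrogenase, fell with DSS by 1.13 ± 0.06 in WT (adjusted p = 4.73e-09) and by 2.35 ± 0.06 in KO (adjusted p = 1.90e-12), and the difference of -1.23 ± 0.09 passed the test (adjusted p = 5.34e-07). Gstm1, a glutathione transferase, fell by 0.66 ± 0.04 in WT (adjusted p = 4.30e-08) and by 0.64 ± 0.04 in KO (adjusted p = 3.74e-08). Ugt1a6a, a glucuronosyltransferase, was lower in KO than in WT under DSS at -0.98 ± 0.07 (adjusted p = 4.38e-08). Glutathione transferases and Ugt1a genes have close copies or shared exons, so reads may be split between them and these values are uncertain.

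Slc7a11 is also a target of ATF4, the factor of the amino acid stress response, so genes of that response were counted beside it. Of 13 tested, 9 were higher and 2 lower in KO than in WT under DSS, with a median log2 fold change of 0.69. Shmt2, a mitochondrial enzyme of serine metabolism, was higher by 1.14 ± 0.07 (adjusted p = 1.30e-08), from 19.4 to 42.8 CPM, and Phgdh, the first enzyme of serine synthesis, by 1.38 ± 0.09 (adjusted p = 5.28e-08), from 7.96 to 20.8 CPM. Control KO also had 7 of the 13 higher than control WT, which was 5 with DESeq2 and 4 without either control KO library. Among them were Psat1 at 0.99 ± 0.13 (adjusted p = 0.000173) and Slc7a5 at 0.71 ± 0.09 (adjusted p = 0.000105). Slc7a11 did not pass the test there. With DSS, 4 were higher and 2 lower in WT. The lower ones were Ddit3 (-0.71 ± 0.10, adjusted p = 6.55e-05) and Atf4 itself (-0.26 ± 0.05, adjusted p = 0.000789). The 4 became 1 with DESeq2, without the first control WT or either DSS WT library, and 2 without the second control WT library. In KO 6 were higher and 3 lower. The part of ATF4 in the level of Slc7a11 was not tested.

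**Figure D4:**
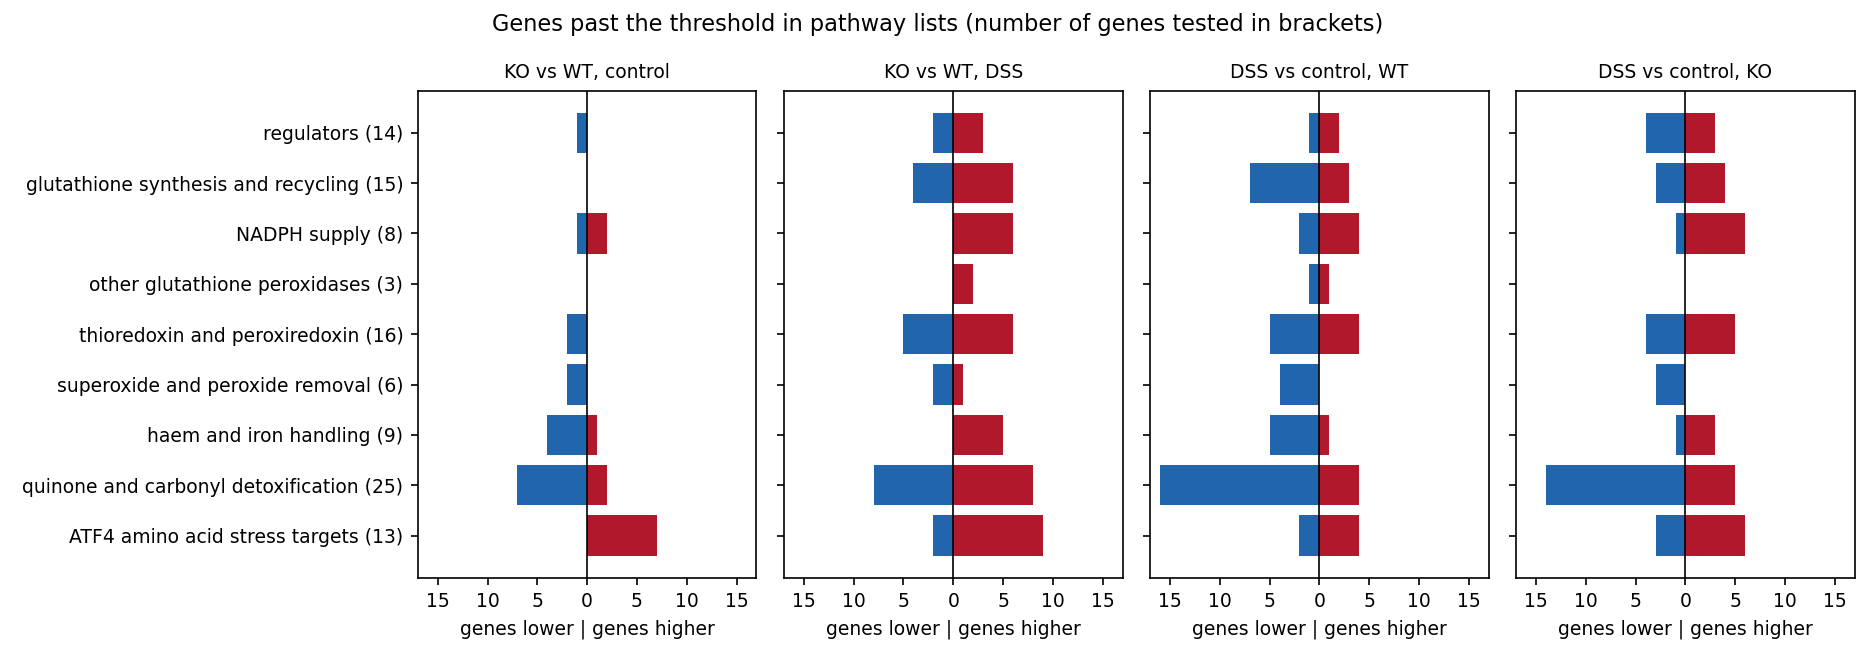
Number of genes in each pathway list that were higher (red, to the right) or lower (blue, to the left) past an adjusted p of 0.05 in each comparison of 2 groups; brackets give the number tested. NADPH supply has 6 genes higher in KO against WT under DSS, and quinone and carbonyl detoxification has 16 lower with DSS in WT.

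For Hmox1, Slc7a11 and Gpx2, whose group means spanned more than 1 on the log2 CPM scale, the 3 genes with the most similar pattern over the 4 groups were sought among the 10048 or 10047 other tested genes averaging 5 CPM or more. Likeness was the root mean square difference of centred log2 group means, over 8 libraries, and is a description. Nearest to Gpx2 was Cd14, a co-receptor for lipopolysaccharide, at 0.033, with 40.1, 41.0, 47.5 and 109 CPM in control WT, control KO, DSS WT and DSS KO. C3, the central complement protein, followed at 0.051, and Tfrc at 0.087. Nearest to Hmox1 were Ly6a, a surface antigen (0.072), Marcksl1 (0.109) and Trim40 (0.111). Ly6a was at 126, 179.7, 209.5 and 646 CPM in the same order of groups. Nearest to Slc7a11 were Duoxa2, the maturation factor of an epithelial hydrogen peroxide-forming oxidase (0.082), Pla2g2a, a secreted phospholipase (0.131), and Coro1a, an actin regulator abundant in leukocytes (0.142). Duoxa2 was at 9.77, 12.1, 34.3 and 72.3 CPM. Within the set, Txnrd1 and Srxn1 were the closest pair at 0.06, and Nqo1 and Slc7a11 the farthest apart at 1.22.

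Markers of other cells moved in the same libraries. Of 13 macrophage markers tested, 6 were higher in KO than in WT under DSS, and their sum was 63.0 to 65.1 CPM in control WT, 58.2 to 60.4 in control KO, 83.3 to 84.8 in DSS WT and 160.4 to 171 in DSS KO. Cd14 alone made up 109 of the last, whereas Adgre1, the gene of F4/80, was at 1.29 CPM and Csf1r at 11.5. Cd163, a haemoglobin scavenger receptor, had a mean of 0.0300 CPM or less in every group and was not tested. Of 10 neutrophil markers tested, 9 were higher, with sums of 259 to 269, 230.1 to 233, 471 to 479 and 696 to 743 CPM in the same order. S100a8 was at 0 without DSS, 1.84 CPM in DSS WT and 55.6 in DSS KO, and Elane was at 0 in all groups. Ly6g and Cd177 carried most of the sums in every group, at 98.2 and 165 CPM in control WT. They were at 43.5 and 419 CPM in DSS WT, and at 108 and 394 in DSS KO. Cd177 did not differ past the threshold between DSS KO and DSS WT (log2 fold change -0.09 ± 0.05, adjusted p = 0.139). Hmox1 and Slc7a11, at 8.41 and 18.7 CPM or less, were as scarce as several of these markers, and the part of such cells in their rise was not tested.

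Erythrocyte markers summed to 68.2 to 69.5 CPM in control WT, 73.6 to 73.7 in control KO, 161 to 162 in DSS WT and 89.2 to 96.7 in DSS KO. All 14 proliferation markers were higher in KO than in WT in both treatments, with sums of 600.2 to 606, 877 to 889, 537 to 546 and 1178 to 1240.1 CPM. Of 13 crypt base and Wnt response markers, 1 was higher and 5 lower in KO than in WT under DSS, with sums of 617 to 625 CPM in WT and 579 to 608 in KO. T, NK, B and plasma cell markers summed to 5.94 to 8.21 CPM in the 4 untreated libraries, 16.2 to 16.3 in DSS WT and 17.7 to 19.9 in DSS KO. Of the 10 tested, 5 rose with DSS in each genotype, and 1 was higher and 2 lower in DSS KO than in DSS WT. The pan-leukocyte gene Ptprc was 2.21-fold higher with DSS in WT (adjusted p = 0.000135), 3.54-fold higher in KO (adjusted p = 6.98e-07), and higher by 0.58 ± 0.14 on the log2 scale in DSS KO than in DSS WT (adjusted p = 0.00472). Of 6 fibroblast and endothelial markers tested, 4 were higher and 1 lower in DSS KO than in DSS WT, with sums of 17.0 to 19.3 CPM in the 4 untreated libraries, 13.2 to 14.2 in DSS WT and 16.5 to 17.5 in DSS KO. The higher ones were Col1a1 (3.31-fold, adjusted p = 0.00348), Col1a2 (3.20-fold, adjusted p = 0.00308), Col3a1 (2.51-fold, adjusted p = 0.000397) and Dcn (1.52-fold, adjusted p = 0.0118), each at 4.07 CPM or less in both DSS groups. Genes of the dissociation response summed to 802 to 872 CPM in the 4 DSS libraries and 1465 to 1706 in the 4 untreated ones. The part of leukocytes and fibroblasts, of proliferation, of mitochondrial share and of the dissociation response in the values of the 10 genes was not tested.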

How the data were processed

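The deposited tables hold, per gene and library, an expected count in which RSEM shares multi-mapping reads among genes, and TPM corrected for effective length, per the file headers. Named in the submitters' processing notes are STAR 2.5.3a and RSEM 1.3.0, the build mm10, and DESeq2 1.18.1; options, annotation and strand setting are not given in the sources used here. TPM served for levels between genes and no test used it.

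Expected counts were rounded and fitted in R 4.3.3 with edgeR 4.0.16. Genes were kept by filterByExpr within group and scaled by TMM. A quasi-likelihood model with a mean for each group used all 8 libraries, with 4 residual degrees of freedom. P-values (two-sided) were given Benjamini-Hochberg adjustment over the 14991 genes tested, with a threshold of 0.05. SE was obtained from the log2 fold change and its F statistic. "Higher", "lower", "rose" and "fell" refer to values past that threshold. The procedure was also run on simulated counts. These gave all genes and groups the same spread, unlike the libraries here, so no conclusion is drawn from that run. Alternatives were RLE, upper quartile and total count scaling, no filter, a filter of 5 CPM in 2 libraries, the DESeq2 1.42.0 Wald test, effective-length offsets, a replicate block and leaving out each library.

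Positions are those of GENCODE M21 (GRCm38, equal to mm10), where all 10 identifiers matched with version. Members, 9 lists of related genes and 10 marker lists were chosen with earlier results of these data known. Named list genes are up to 2 per list and comparison with the smallest p, unless said to be picked afterwards; not every gene the rule gives is printed.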

Additional observations from a re-analysis of the deposited data

Results flagged for a closer look

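For 7 of the 10 genes the DSS change differed between KO and WT by the edgeR interaction test. Of all tested genes, 10.8% had a positive and 10.6% a negative interaction by that test. The difference, KO minus WT on the log2 scale, was 1.13 for Gpx2 (adjusted p = 7.16e-08), 1.06 for Hmox1 (adjusted p = 0.00976), 0.97 for Slc7a11 (adjusted p = 0.0130), 0.33 for Txnrd1 (adjusted p = 0.000984) and 0.31 for Gpx1 (adjusted p = 0.00454). It was -0.39 for Nfe2l2 (adjusted p = 0.000399) and -0.21 for Gclc (adjusted p = 0.0415). With DESeq2 the calls of Hmox1, Slc7a11 and Gclc were lost. Nfe2l2 alone among these 7 genes changed past the threshold in opposite directions, higher with DSS in WT and lower in KO. Its rise in WT (log2 fold change 0.13, adjusted p = 0.0298) was lost with DESeq2, without a filter and with effective-length offsets. It was also lost in several fits that left out a library. Outliers within a group were not examined, because each group has 2 libraries.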

How the results depend on the processing

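All 16 alternatives kept the direction and call of Gpx2, Slc7a11, Hmox1, Txnrd1, Srxn1, Nfe2l2 and Gclc in KO against WT under DSS. For the untreated genotypes, the number of lower members, 1 in the reported fit, was 2 with no filter and 0 with DESeq2. Leaving out libraries gave 0 to 2 lower and 0 to 2 higher. For DSS in WT, 4 higher members became 2 with DESeq2 and 2 to 4 without each library. Of the interactions, 5 positive calls became 3 with DESeq2 and 3 to 5 without each library. The 2 negative calls became 1 with total count scaling, no filter, DESeq2, effective-length offsets and the replicate block, and changed when some libraries were left out. Where a library was left out, the lone sample of its group is assumed to vary like the other groups.

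Reversals were limited to changes that passed no test. Nqo1 in KO against WT under DSS became 0.021 with total count scaling and ranged from -0.046 to 0.040 without each library. For DSS in WT, Gclm became 0.014 with total count scaling, Gclc -0.012 with no filter, -0.016 with effective-length offsets and -0.035 to 0.049 without each library, Txnrd1 -0.009 with no filter, and Gpx1 -0.017 with effective-length offsets. The cause was not tested. 

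Same-numbered libraries did not deviate together (correlations from -0.112 to 0.077), so the numbers were not taken as pairs. With the replicate block, negative interactions went from 2 to 1, since Gclc was lost (-0.210, adjusted p = 0.0539), and no other call on a member changed.

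Over all tested genes, counts fell by over 1.5 times with DESeq2 and effective-length offsets in several comparisons. For the untreated genotypes, 1378 higher and 932 lower became 718 and 464 with DESeq2, 786 and 504 with effective-length offsets, and 625 to 1833 and 328 to 1341 without each library. For DSS in WT, 2834 and 2739 became 1805 and 1574 with DESeq2, and 1867 to 3203 and 1791 to 3223 without each library. For the interaction, 1613 and 1595 became 825 and 798 with DESeq2, 882 and 912 with effective-length offsets, and 945 to 2276 and 943 to 2168 without each library. For KO against WT under DSS, 2657 lower became 1648 with DESeq2 and 1767 to 2791 without each library. Depth limits Hmox1 and Slc7a11 most, since they had 31 to 40 and 39.01 to 55.01 counts, respectively, in the untreated libraries.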
